A study of Mus musculus with 21 samples.

Results

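The genes described here are 8 mouse interferon-inducible GTPase genes, Irgm1, Irgm2, Igtp, Iigp1, Tgtp1, Tgtp2, Gm4951 and Gm4070, out of 55487 genes counted in each of the skin and lymph node tables. They were selected by gene symbol, and the list was drawn up with earlier results of the same 21 libraries known. Which of their values drew attention was not recorded, so their differences are given below as a description and not as independent evidence of a direction. All 8 were found in both tables, and all 8 passed the filter on low counts in both tissues.

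The skin libraries came from mice at 12 months of age: 3 from WT mice, 2 from nonlesional (NL) skin and 4 from lesional (L) skin of Ifnk TG mice, none of them UV-treated. Ifnk TG mice carry the type I interferon gene Ifnk under the keratin 14 promoter, which is active in the epidermis, and were made on C57Bl/6 and backcrossed to BALB/c. The inguinal lymph node libraries came from young mice without lesions in 4 groups of 3: WT and Ifnk TG, each without treatment or after UVB at 250 mJ/cm2 on 3 days a week for 2 weeks and 2 weeks without exposure. Replicates carry the sample numbers of the labels, which give no mouse, sex or body site. No batch entered the fits. It is therefore not known whether libraries of a group came from separate mice, and p-values measure only the spread between these libraries.

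Immunity-related GTPases (IRGs) are made in response to interferons, above all interferon gamma, and act inside the cell against vacuole-dwelling parasites and bacteria. The regulatory members, the Irgm proteins, sit on the cell's own membranes and hold the effector members inactive there. Effector members accumulate on the membrane of a pathogen's vacuole and break it open, with the help of guanylate-binding proteins and of the autophagy conjugation machinery.

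Irgm1, Irgm2 and Igtp (also called Irgm3) are the regulatory genes, and Iigp1 (Irga6), Tgtp1 and Tgtp2 (Irgb6) and Gm4951 (Ifgga2) belong to the effector type. Gm4070 did not match the family label. RefSeq lists it as VLIG-1, a very large interferon-inducible GTPase, and its transcript of 9007 bases differed from that of its neighbour Gvin1 by only 3 edits over 9005 bases. In GRCm38 with GENCODE M21 names, the regulatory genes lie on chromosome 11 in 2 places. Irgm1 runs from 48861968 to 48871683 on the minus strand, near Tgtp1 (48985327 to 48994172) and Tgtp2 (49057194 to 49064206), also on the minus strand. Igtp (58199556 to 58207591) lies within the annotated span of Irgm2 (58199618 to 58222782) on the plus strand except for its first bases, and the pair share 162 exon bases. Gm4951 (60212080 to 60247820) and Iigp1 (60376027 to 60392634) lie on chromosome 18, both on the plus strand, and Gm4070 (105895139 to 105953967) on the minus strand of chromosome 7.

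Some of these genes cannot be told apart well by reads. The longest transcripts of Tgtp1 and Tgtp2 differed by 7 edits over 2810 bases, and 89.4% of the 50-base words of Tgtp1 also occurred in Tgtp2. Of the 50-base words of Gm4070, 98.3% occurred in Gvin1. The counting tool shares such reads out by estimation, so the split between Tgtp1 and Tgtp2, and between Gm4070 and Gvin1, is uncertain. Irgm1 shared none of its words with another gene, Igtp shared 12.3% (all with Irgm2), Irgm2 7.3%, Gm4951 4.62% and Iigp1 3.19%. The reads came from mice bred to BALB/c and were aligned to the C57BL/6J reference. IRG loci vary between strains, and how far this moved the counts was not tested.

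Promoter sequences were on hand for 5 of the 8 genes, in RefSeq windows on GRCm38.p6 of 250 bases before the gene's start. Shown are the 30 bases around the interferon-type motifs, because the same arrangement recurred in 4 of the 5. Capitals mark the GAS motif (TTCNNNGAA, an interferon gamma-type element) and the ISRE motif (GAAA, 2 bases of any kind, GAAA, bound by IRF proteins), which do not overlap each other in these genes.
Igtp: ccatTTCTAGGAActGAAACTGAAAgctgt
Irgm2: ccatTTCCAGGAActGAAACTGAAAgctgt
Tgtp1: ccatTTCCAGGAAtcGAAACTGAAAcctac
Tgtp2: ccatTTCCAGGAAtcGAAACCGAAAcctac
Irgm1: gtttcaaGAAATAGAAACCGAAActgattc

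These stretches lie at chr11:58199507-58199536 for Igtp and chr11:58214898-58214927 for Irgm2, both on the plus strand. On the minus strand they lie at chr11:48992309-48992338 for Tgtp1, chr11:49064268-49064297 for Tgtp2 and chr11:48871428-48871457 for Irgm1. The Irgm1 stretch is inside an annotated exon of that gene and the other 4 are in no annotated exon. In Igtp the GAS began 45 bases before the start and in Tgtp1 88 bases before it, in each case with 2 bases between GAS and ISRE. The start is that of RefSeq, which can differ from GENCODE. The stretches of Irgm1, Irgm2 and Tgtp1 lie inside the GENCODE spans given above. Irgm1 held a pair of overlapping ISRE matches and no GAS match in its window. Searched on both strands in 27025 promoters of the same length, the GAS letters were present in 7.18% and the ISRE letters in 3.04%. Both within 10 bases of each other were found in 13 promoters, 0.0481% of the total. Those 13 included Igtp, Irgm2, Tgtp1 and Tgtp2 and also Gm12185 and Gm12250, 2 further IRG genes, beside Irf2, Bst2 and Cxcl14. Gm12185, on the minus strand, has its annotated start at 48992226, near the Tgtp1 stretch. The windows of Gm12185 and Tgtp1 may therefore hold the same site. The arrangement was looked for after the sequences had been read, and a match of letters is not evidence of binding.

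The deposited counts summed to 40499078 to 56511276 per skin library and 27599809 to 36428435 per node library. Ifnk itself was counted 14, 11, 5 and 8 times in L replicates 4, 5, 6 and 7, and 6 and 0 times in NL replicates 2 and 3. It was counted 0 times in the 3 WT skin libraries and in all 12 node libraries, where a count of 0 allows up to 3. NL replicate 3 therefore cannot be checked against its label by Ifnk. The L libraries stood apart in make-up as well. The summed level of 7 hair shaft genes was 1344 to 5009 CPM (counts scaled to library size by TMM) in L and 0.173 to 1.15 CPM in the other skin, and that of 7 skeletal muscle genes was 23.6 to 6571 CPM in L against 24120 to 35530 CPM elsewhere. Epidermal keratinocyte genes were high in all skin libraries (summed 9779 to 25540 CPM), and B cell and T cell genes were high in all node libraries (summed B cell level 1049 to 2020 CPM). In such bulk samples, fewer cells of a type and less RNA per cell cannot be told apart.

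In skin, the regulatory and effector genes were highest in 2 of the 4 L libraries, and NL values lay near those of WT. Against WT, 5 of the 8 genes passed the test as higher in L (Irgm2, Igtp, Iigp1, Tgtp1 and Tgtp2). None was called lower. Over all 19101 genes tested, 43.1% were called in this comparison and 23.0% were called higher, so calls were common. Fold changes come from edgeR's quasi-likelihood test with Benjamini-Hochberg adjustment over all tested genes, and a gene is called at an adjusted p under 0.05. The median log2 fold change was 2.19 over the 8 genes and 0.06 over all genes.

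Irgm1, which controls effector loading and whose loss in mice weakens resistance to intracellular bacteria, had CPM of 27.7, 24.8 and 26.5 in WT replicates 8, 9 and 10 and 23.5 and 26.2 in NL replicates 2 and 3. In L replicates 4, 5, 6 and 7 it had 102, 39.5, 144 and 24.0 CPM. L replicates 4, 5 and 6 were above every WT and NL library, and L replicate 7 was below every WT library. The log2 fold change of L over WT was 1.55 (SE 0.57, adjusted p = 0.0565, edgeR), so Irgm1 was not called. It was called with DESeq2, and with edgeR when L replicate 5 or 7 was left out.

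Irgm2, a second regulator, was at 29.4, 21.6 and 24.9 CPM in WT, 28.4 and 19.2 CPM in NL and 124, 44.9, 180 and 35.4 CPM in L. Every L library was above every WT and NL library. The log2 fold change over WT was 1.93 (SE 0.57, adjusted p = 0.0274, edgeR). Igtp, the third regulator, rose further. It had 19.0, 13.9 and 12.5 CPM in WT, 18.6 and 11.1 CPM in NL and 133, 48.0, 226 and 35.4 CPM in L, without overlap. Its log2 fold change was 2.87 over WT (SE 0.67, adjusted p = 0.0107, edgeR), a 7.30-fold difference, and 2.90 over NL (SE 0.80, adjusted p = 0.0332, edgeR).

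Iigp1, an effector that coats parasite vacuoles, was at 43.7, 16.3 and 22.3 CPM in WT, 25.1 and 19.3 CPM in NL, and 215, 52.2, 473 and 92.7 CPM in L. The lowest L value (replicate 5) was 1.90 times the WT mean and the highest (replicate 6) 17.2 times. Iigp1 rose by a log2 fold change of 2.92 over WT (SE 0.79, adjusted p = 0.0185, edgeR) and 3.23 over NL (SE 0.95, adjusted p = 0.041, edgeR).

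Tgtp1 and Tgtp2, near-identical effector genes first found in T cells, both rose. Tgtp1 had 5.70, 1.42 and 2.27 CPM in WT, 3.46 and 2.72 CPM in NL and 24.1, 10.2, 58.8 and 7.64 CPM in L. Tgtp2 had 16.6, 10.1 and 8.31 CPM in WT, 10.7 and 9.12 CPM in NL and 57.7, 19.4, 154 and 25.0 CPM in L. Neither gene overlapped between L and the other skin. Against WT the log2 fold change was 3.00 for Tgtp1 (SE 0.84, adjusted p = 0.0212, edgeR) and 2.46 for Tgtp2 (SE 0.74, adjusted p = 0.029, edgeR). Counted as 1 gene, the pair had a log2 fold change of 2.59 (adjusted p = 0.0245, edgeR). Tgtp1 took 12.4% to 34.4% of the pair's counts in skin and 40.9% to 45.7% in nodes.

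Like Irgm1, Gm4951 and Gm4070 were not called and overlapped with WT. Gm4951, an effector-type gene, had 4.95, 5.63 and 3.36 CPM in WT, 2.12 and 4.64 CPM in NL and 12.4, 4.32, 26.1 and 4.90 CPM in L. Its log2 fold change was 1.36 (SE 0.65, adjusted p = 0.126, edgeR), with L replicates 5 and 7 among the WT values. Gm4070 had 84.8, 66.0 and 73.2 CPM in WT, 72.2 and 69.7 CPM in NL and 83.7, 26.4, 171 and 78.8 CPM in L. Its L values lay on both sides of WT (log2 fold change 0.27, SE 0.50, adjusted p = 0.694, edgeR), and without L replicate 6 the log2 fold change was -0.24.

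**Figure D1:**
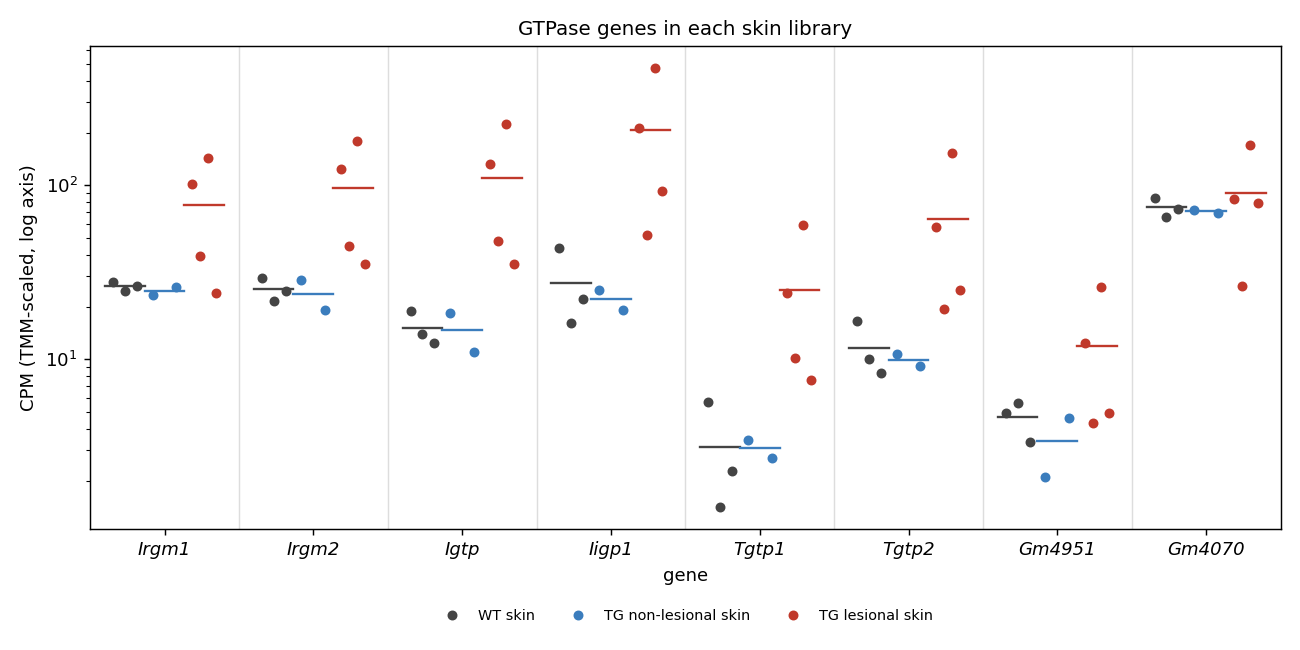
CPM of the 8 genes (log axis) in each skin library, with 1 point per library, ordered by replicate number within a group, and a line at the group mean. For Igtp, Iigp1, Irgm2, Tgtp1 and Tgtp2 all 4 L points lie above the 3 WT and 2 NL points, and L replicates 4 and 6 are the highest.

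Every library of L was above every library of WT for these same 5 genes, and such separation was seen for 26.0% of all genes tested. The calls changed with the WT libraries. Without WT replicate 9 or 10 only Igtp was called in L over WT, and without WT replicate 8 the called genes were Igtp, Iigp1 and Tgtp1. Leaving out any 1 L library kept all 5 called. Against NL the same 5 genes were separated, beside 24.7% of all genes, but only Igtp and Iigp1 of the 8 were called (25.0% of all genes called, 13.2% called higher). Without either NL library, or without WT replicate 8 or 9, none of the 8 was called in L over NL, and without L replicate 4 or WT replicate 10 only Igtp was. Without L replicate 6 there were 3 called (Igtp, Iigp1 and Tgtp2), and without L replicate 5 or 7 there were 5. Between NL and WT skin, none of the 8 genes and none of the 19101 genes tested were called with edgeR (0% called, 1465 genes at an unadjusted p under 0.05), while DESeq2 called 80 genes. The log2 fold changes of the 8 genes between NL and WT ran from -0.46 for Gm4951 to -0.02 for Tgtp1.

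The L libraries kept nearly 1 order across the genes. Replicate 6 was the highest and replicate 4 the next for all 8 genes, while replicates 5 and 7 changed places from gene to gene. Ifng, the gene of interferon gamma, had 117, 34, 203 and 5 counts in L replicates 4 to 7, against 5, 0 and 4 in WT and 12 and 0 in NL. Cxcl9, a chemokine gene induced by interferon gamma, had 91.8, 41.5, 170 and 19.9 CPM in L and 0.711 to 2.24 CPM in the other skin. Both were thus highest in L replicate 6 and next highest in replicate 4, as the GTPase genes were. Isg15, a type I interferon target, was highest in replicate 4, with 136, 57.0, 102 and 26.1 CPM in L replicates 4 to 7. The summed type I targets were at 502, 206, 494 and 160 CPM, so replicates 4 and 6 lay close together. What set these orders was not tested. Cd8a, a marker of cytotoxic T cells, was at 6.74, 11.9, 12.1 and 0.919 CPM in L and 0.123 to 1.13 CPM elsewhere. Cd3e, another T cell gene, did not rise. It was at 6.28, 5.03, 4.91 and 3.48 CPM in L, 5.5 to 7.5 CPM in WT and 6.67 and 10.6 CPM in NL. Of the 8 T cell genes, 6 had a positive log2 fold change in L over WT. The summed neutrophil level was 570 CPM in L replicate 4 and 62.3 to 140 CPM in the other L libraries, against 9.42 to 19.0 CPM in WT and NL. In L over WT, 5 of 8 T cell, 3 of 5 tested neutrophil and 1 of 8 macrophage marker genes were called higher. The same held for 7 of 7 hair shaft genes, beside 23.0% of all genes. Called lower were 3 of 7 muscle and 4 of 5 endothelial genes, beside 3851 of all 19101 genes tested. The part of these cells and of the hair and muscle difference in the GTPase values was not tested.

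Of the other IRG genes, 2 of 8 tested were called in L over WT, both higher, near the 23.0% of all genes called higher. Gm12250, an effector gene called Irgb10, had a log2 fold change of 2.55 (adjusted p = 0.0408, edgeR), and Gm4841 one of 5.34 (adjusted p = 0.0345, edgeR). Gm4841 was at 60.8, 0.691, 12.4 and 1.15 CPM in L replicates 4 to 7 and 0.223 to 0.753 CPM in WT, so L replicate 5 lay among the WT values. Gm12185, which shares 223 exon bases with Tgtp1, was at 2.91 (adjusted p = 0.0572, edgeR). F830016B08Rik was at 1.96 (adjusted p = 0.276, edgeR). Gm5431, 9930111J21Rik1, 9930111J21Rik2 and Irgq lay between -0.24 and 0.24, and Irgc1, a testis gene, was too low to test. Of the 11 guanylate-binding protein genes 6 were called higher and none lower, among them Gbp8 at 3.30 (adjusted p = 0.0163, edgeR), Gbp4 at 2.40 (adjusted p = 0.023, edgeR), Gbp2b at 2.23 (adjusted p = 0.0346, edgeR) and Gbp6 at 2.07 (adjusted p = 0.0138, edgeR). None of the 3 genes tested from the very large GTPase list beside Gm4070 was called. Except for Gvin1, the counted genes of that list are annotated as pseudogenes.

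Genes of the pathway between interferon and the IRG promoters were called in part. In L over WT, 4 of 13 JAK, STAT and IRF genes rose, near the 23.0% of all genes called higher. Among them were Socs1 at 1.83 (adjusted p = 0.00646, edgeR), Stat2 at 1.02 (adjusted p = 0.0395, edgeR) and Irf9 at 0.91 (adjusted p = 0.017, edgeR). Jak1, a kinase of the interferon receptors, fell by 0.72 on the log2 scale (adjusted p = 0.00665, edgeR). Of 10 interferon gamma targets 5 rose, beside the same 23.0% of all genes, led by Cxcl9 at 5.96 (adjusted p = 0.00198, edgeR) and Cd274 at 1.88 (adjusted p = 0.0144, edgeR). Of 13 type I interferon targets 4 rose, which is near that share, with Isg15 at 2.51 (adjusted p = 0.00936, edgeR) and Oas2 at 2.11 (adjusted p = 0.0128, edgeR). The lists are not separate, as the JAK, STAT and IRF list shares Socs1 and Irf1 with the interferon gamma targets and Usp18 with the type I targets. Ifngr1, a chain of the interferon gamma receptor, fell by 0.86 on the log2 scale (adjusted p = 0.00778, edgeR). Of 10 autophagy conjugation genes 3 rose, also near that share, with Gabarapl2 at 0.72 (adjusted p = 0.0123, edgeR) and Atg3 at 0.61 (adjusted p = 0.00833, edgeR).

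**Figure D2:**
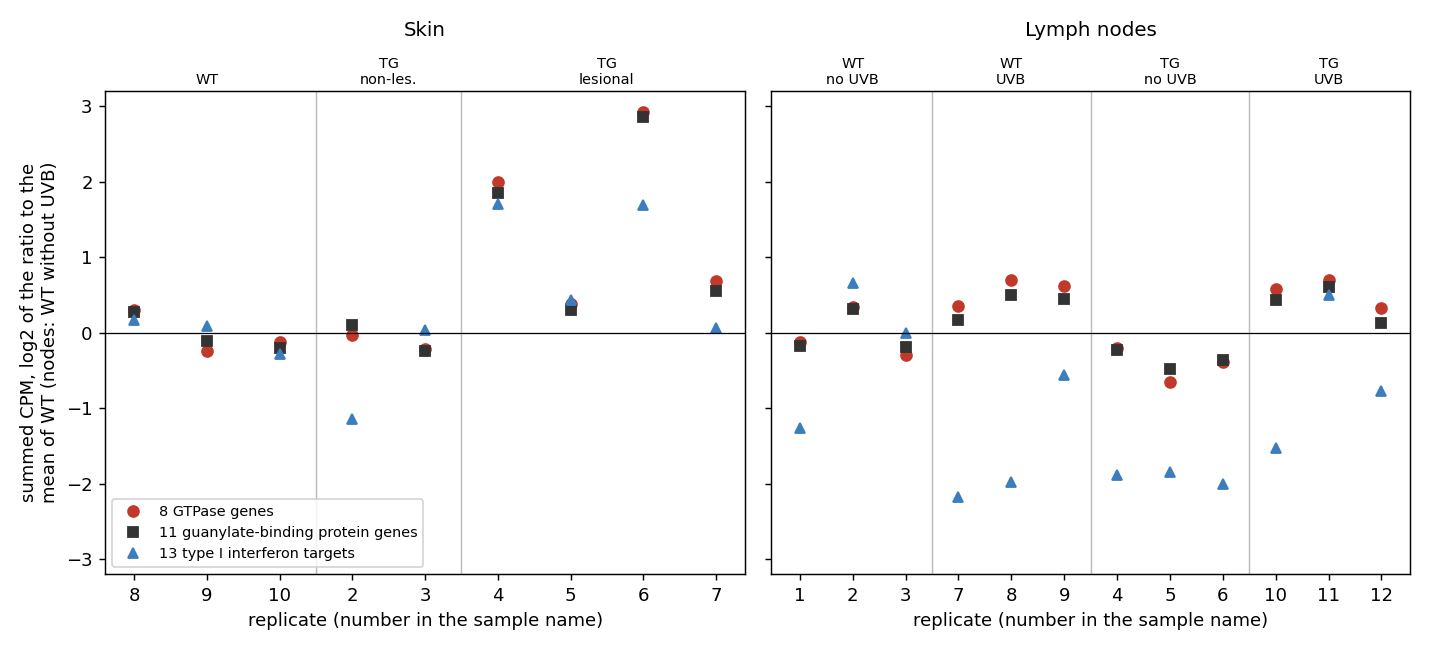
Summed CPM of the 8 GTPase genes, the 11 guanylate-binding protein genes and 13 type I interferon targets in each library, as log2 of the ratio to the mean of WT skin (left) or of WT nodes without UVB (right). The GTPase and guanylate-binding protein sums lie close together in every library, while in the nodes the type I targets range over a wider span and are lower in UVB-treated WT than in 2 of the 3 untreated WT libraries.

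In the lymph nodes, every one of the 8 genes had a higher mean after UVB in both genotypes. In WT nodes, Irgm2 and Gm4070 were called (2 of 8). Of the 16173 genes tested there, 4.98% were called and 2.92% were called higher. In Ifnk TG nodes none of the 8 was called with edgeR, and none of all genes was (0%), although 1507 genes had an unadjusted p under 0.05 and DESeq2 called 137 genes, all 8 members among them. Averaged over both genotypes, all 8 rose after UVB, in a comparison in which 8.61% of genes were called and 4.81% were called higher. With 1 library left out, Irgm1 and Gm4951 each lost this call in 9 of 12 refits, and the other 6 genes kept it in all 12. Irgm1 also lost it without the low-count filter. The comparisons share libraries, so the average is not a further piece of evidence.

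Irgm2 was at 109, 141 and 102 CPM in untreated WT nodes (replicates 1, 2 and 3) and 166, 237 and 189 CPM after UVB (replicates 7, 8 and 9). In Ifnk TG nodes it was at 103, 76.3 and 109 CPM without UVB (replicates 4, 5 and 6) and 180, 183 and 166 CPM with it (replicates 10, 11 and 12). Treated and untreated libraries did not overlap in either genotype. The log2 fold change was 0.75 in WT (SE 0.16, adjusted p = 0.0318, edgeR) and 0.88 in TG (SE 0.16, adjusted p = 0.154, edgeR).

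Igtp was at 203, 282 and 194 CPM in untreated WT and 297, 401 and 334 CPM in treated WT nodes. In TG nodes it went from 211, 146 and 178 CPM to 339, 358 and 308 CPM. Again no treated library overlapped an untreated one of its genotype, and the log2 fold changes were 0.60 (SE 0.16, adjusted p = 0.0532, edgeR) and 0.91 (SE 0.16, adjusted p = 0.154, edgeR). Irgm1 had the smallest difference in WT. It was at 151, 235 and 158 CPM without and 166, 235 and 220 CPM with UVB in WT (log2 fold change 0.19, SE 0.18, adjusted p = 0.554, edgeR). In TG it was at 140, 107 and 126 CPM without and 194, 245 and 191 CPM with UVB (0.76, SE 0.18, adjusted p = 0.228, edgeR).

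Iigp1 had the largest average response. It was at 50.7, 81.3 and 40.4 CPM in untreated and 103, 108 and 108 CPM in treated WT nodes, and at 68.4, 46.6 and 52.3 CPM in untreated and 128, 168 and 105 CPM in treated TG nodes. Averaged over genotypes it rose by 1.08 on the log2 scale (SE 0.18, adjusted p = 0.0128, edgeR), which is 2.11-fold. Tgtp1 went from 198, 291 and 191 CPM to 284, 350 and 299 CPM in WT and from 202, 141 and 180 CPM to 340, 344 and 260 CPM in TG. Tgtp2 went from 260, 386 and 232 CPM to 346, 439 and 409 CPM in WT and from 240, 178 and 222 CPM to 411, 433 and 375 CPM in TG. For both, the WT groups overlapped through untreated replicate 2 and the TG groups did not. Averaged over genotypes the rise was 0.65 for Tgtp1 (SE 0.13, adjusted p = 0.0144, edgeR) and 0.69 for Tgtp2 (SE 0.12, adjusted p = 0.013, edgeR).

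Gm4070, which had not followed the others in skin, did so here. It was at 508, 626 and 390 CPM in untreated and 699, 838 and 909 CPM in treated WT nodes, a log2 fold change of 0.68 (SE 0.18, adjusted p = 0.0495, edgeR). In TG nodes it was at 434, 329 and 367 CPM without and 809, 883 and 608 CPM with UVB, a log2 fold change of 1.02 (SE 0.18, adjusted p = 0.154, edgeR). Gvin1, with which it shares most of its sequence, was assigned 0.00 to 2.35 CPM in nodes, and the split between them is uncertain as above.

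Gm4951 had the lowest mean level per kilobase of exon of the 8 genes in every node group and the largest difference between genotypes after UVB. It was at 1.57, 1.98 and 0.614 CPM in untreated WT, 2.10, 1.34 and 1.81 CPM in treated WT, 1.78, 2.02 and 1.67 CPM in untreated TG and 3.93, 7.73 and 5.35 CPM in treated TG nodes. The 3 treated TG libraries were above all 9 others. Treated TG exceeded treated WT by a log2 difference of 1.69 (SE 0.37), but with an adjusted p of 0.673 in edgeR it was not called (0% of all genes called, 1131 at an unadjusted p under 0.05; DESeq2 called 19 genes, Gm4951 among them). Complete separation in that direction was seen for 5.39% of all genes.

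**Figure D3:**
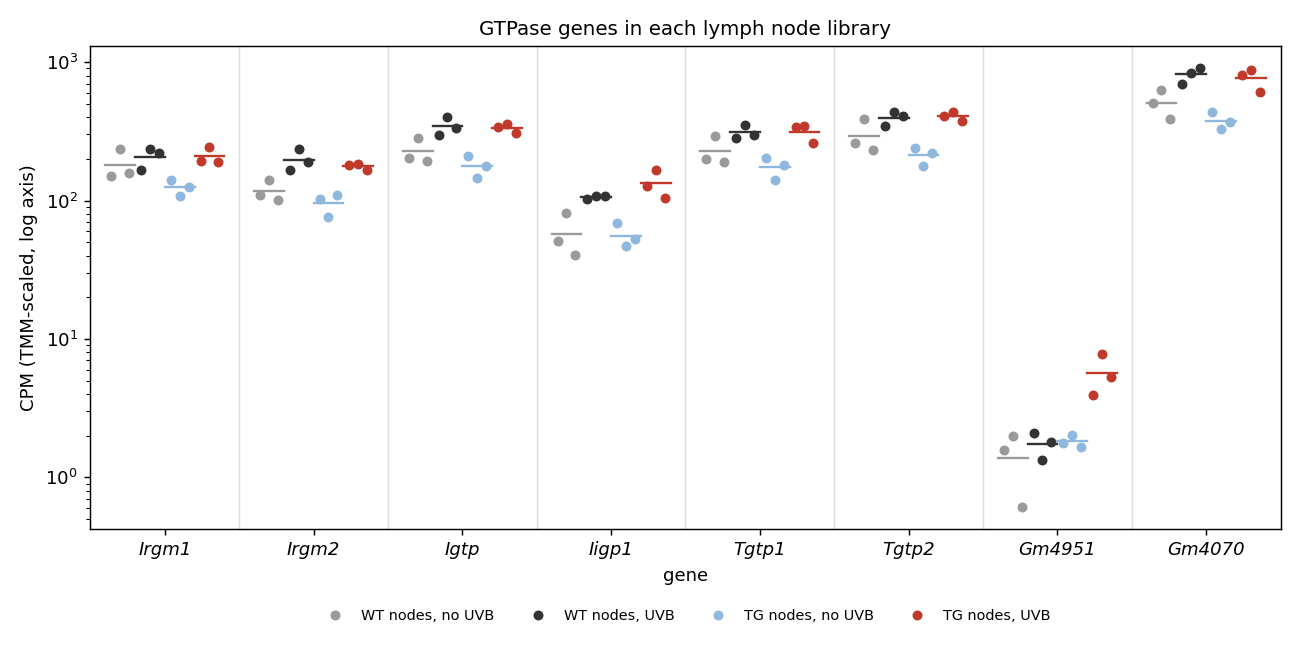
CPM of the 8 genes (log axis) in each lymph node library, with 1 point per library in replicate order and a line at the group mean. Treated TG libraries lie above untreated TG libraries for all 8 genes, while among untreated WT libraries replicate 2 is the highest for every gene.

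All 3 treated libraries were above all 3 untreated ones for 4 of the 8 genes in WT (Irgm2, Igtp, Iigp1 and Gm4070), against 19.8% of all genes. The same held for all 8 genes in TG, against 6.23% of all genes. Leaving out 1 library changed the calls. Without untreated WT replicate 2, 4 of the 8 genes were called in WT (Irgm2, Igtp, Iigp1 and Tgtp2), and without treated TG replicate 12, 6 were called in TG (all but Irgm1 and Gm4951). Without untreated WT replicate 1 or 3 or treated WT replicate 8 or 9, none was called in WT. Without any 1 of the untreated TG replicates, treated WT replicate 7 or treated TG replicate 11, only Irgm2 was called in WT. Without treated TG replicate 12, 4 genes were called in WT (Irgm2, Igtp, Iigp1 and Gm4070).

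With edgeR, genotype alone gave no call among the 8 genes, while DESeq2 called Gm4951 in treated nodes. Without UVB, 7 of them had lower values in TG than in WT nodes, with log2 differences from -0.55 for Irgm1 to -0.04 for Iigp1, and Gm4951 had 0.40. Every untreated TG library was below every untreated WT library for Irgm1, as for 4.93% of all genes. No gene of the whole table was called in that comparison by edgeR (0%, 549 genes at an unadjusted p under 0.05, 2 called by DESeq2). Averaged over treatments, 0.00618% of genes were called, which is 1 gene and none of the 8. The interaction test called no difference between genotypes in the response to UVB for any of the 8 genes, with differences from 0.13 for Irgm2 (SE 0.23) to 1.29 for Gm4951 (SE 0.52) and adjusted p from 0.848 to 0.929 in edgeR. No gene was called for the interaction (0%, 881 at an unadjusted p under 0.05, 8 called by DESeq2).

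Among interferon genes in the nodes, Ifng was at 0.845, 0.533 and 0.338 CPM in untreated and 1.32, 2.00 and 1.59 CPM in treated WT nodes, and rose by a log2 fold change of 1.51 (adjusted p = 0.0343, edgeR). In TG nodes it was at 0.605 to 0.730 CPM without and 0.826 to 0.901 CPM with UVB, a log2 fold change of 0.32 (adjusted p = 0.817, edgeR). Irf1, a transcription factor gene induced by interferon gamma, rose in treated WT nodes by 0.53 (adjusted p = 0.0303, edgeR). It was 1 of 2 interferon gamma targets called higher there, of 9 tested, with a median log2 fold change of 0.07. Over all genes 2.92% were called higher. Cxcl9 was at 6.76, 9.50 and 4.24 CPM in untreated and 8.71, 5.27 and 5.33 CPM in treated WT nodes, with overlap. The 13 type I targets after UVB lay at a median of -1.52 on the log2 scale in WT and 1.96 in TG, and none was called in either. Their untreated WT sum was 219, 827 and 522 CPM in replicates 1, 2 and 3, and Isg15 alone was at 12.0, 53.1 and 41.8 CPM. In untreated TG nodes the sum was 130 to 145 CPM. After UVB it was 116, 133 and 354 CPM in WT and 182, 742 and 305 CPM in TG. Without UVB, TG over WT had a median of -2.03, and for 10 of the 13 every TG library was below every WT library. Over all genes that separation held for 4.93%, and none of the 13 was called. The UVB medians of WT and TG thus start from unlike untreated levels. Ifnb1 was at 0 counts in every node library. Among relatives, 8 of the 11 guanylate-binding protein genes and 6 of the 8 other IRG genes tested were called higher on average over genotypes. Over all genes that share was 4.81%. Gbp10 was at 1.11 (adjusted p = 0.0248, edgeR), Gbp8 at 0.96 (adjusted p = 0.013, edgeR), F830016B08Rik at 1.59 (adjusted p = 0.0339, edgeR) and Gm4841 at 1.34 (adjusted p = 0.0175, edgeR).

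Other signals moved with UVB in the same libraries. The summed erythroid level was 121 to 303 CPM in the untreated and 10.8 to 159 CPM in the treated nodes, and the summed fibroblast level was 46.2 to 109 CPM and 13.8 to 58.1 CPM. All 5 erythroid and 3 of 6 fibroblast genes were called lower on average over genotypes, beside 615 of all 16173 genes tested. All 6 fibroblast genes had negative log2 fold changes there. The summed T cell level in WT nodes was 3088, 3156 and 3088 CPM untreated and 2462, 2731 and 2793 CPM treated, without overlap, and in TG nodes it was 2792 to 2989 CPM untreated and 2729 to 3108 CPM treated. In WT, all 8 T cell genes had negative log2 fold changes and 1, Cd2, was called lower (-0.35), beside 333 of all 16173 genes. Pecam1, an endothelial gene, was called lower in WT and on average. No B cell, macrophage or dendritic marker was called. Their part in the GTPase values was not tested.

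**Figure D4:**
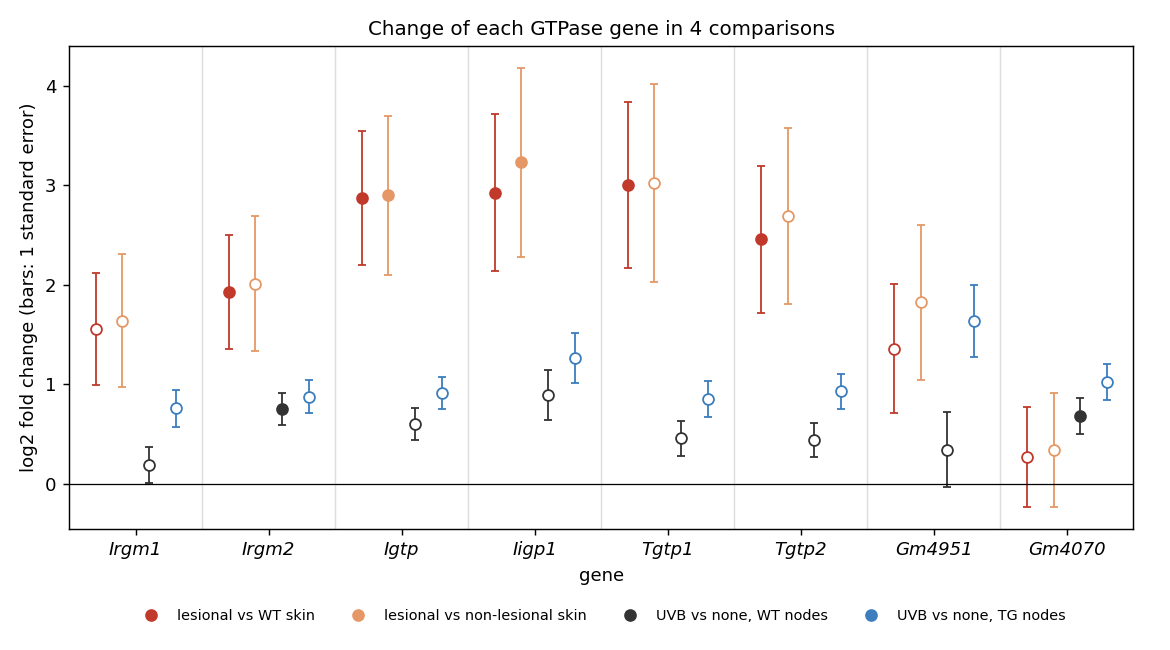
Log2 fold change of each gene (points) with 1 standard error (bars) in 4 comparisons; filled points passed an adjusted p of 0.05. The skin comparisons give larger values with wider bars, up to 3.23 for Iigp1, and the node comparisons smaller values with narrow bars, and Gm4070 is near 0 in skin and at 0.68 and 1.02 in nodes.

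Levels between genes were compared per kilobase of exon. In WT skin the order was Gm4070 (8.05 CPM per kb, SD 1.02, n = 3), Igtp (7.49, SD 1.71), Irgm2 (6.85, SD 1.06), Iigp1 (4.71, SD 2.48), Irgm1 (4.53, SD 0.253), Tgtp2 (3.97, SD 1.49), Gm4951 (1.76, SD 0.439) and Tgtp1 (0.978, SD 0.707). Neighbours in this order differed by less than the larger of their SDs except Tgtp2 from Gm4951 and Gm4951 from Tgtp1. With the longest transcript as length, Iigp1 came first at 8.79 CPM per kb. In L skin the order began with Igtp (54.7 CPM per kb, SD 43.6, n = 4) and Iigp1 (35.8, SD 32.6), and no neighbours differed beyond their SDs. With the longest transcript, Iigp1 came first in L skin as well, at 66.7 CPM per kb.

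In untreated WT nodes the order was Igtp (112 CPM per kb, SD 23.9, n = 3), Tgtp2 (99.6, SD 27.9), Tgtp1 (70.8, SD 17.4), Gm4070 (54.8, SD 12.7), Irgm2 (31.8, SD 5.74), Irgm1 (31.3, SD 8.03), Iigp1 (9.87, SD 3.66) and Gm4951 (0.524, SD 0.264). Igtp and Tgtp2, Tgtp1 and Gm4070, and Irgm2 and Irgm1 did not differ beyond their SDs. The same order held in the other node groups. With the longest transcript as length, Irgm1 came before Irgm2 in every node group except treated WT (47.4 and 33.2 CPM per kb in untreated WT). Skin and nodes were scaled separately, so levels in the 2 tissues are set side by side without a test. Tgtp1 ranged from 1.42 to 58.8 CPM in skin and from 141 to 350 CPM in nodes, while Gm4951 ranged from 2.12 to 26.1 CPM in skin and from 0.614 to 7.73 CPM in nodes.

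The genes whose pattern was most like the mean of the 8 genes were found by Pearson's r over all libraries of a tissue, as a description. In skin (n = 9 libraries) they were Gm12250 (r = 0.994), Gbp3 (0.989), Gbp2b (0.987), Gm43302 (0.985) and Gbp5 (0.985). In nodes (n = 12 libraries) they were Gm18852 (r = 0.981), Gbp2b (0.980), Gbp5 (0.970), Gbp2 (0.966) and Gbp3 (0.960). Gm18852 is a pseudogene that shares 259 exon bases with Gm4070 on the same strand, and the points of each r share the group structure of the tissue.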

How the data were processed

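RNA was measured in 9 skin and 12 inguinal lymph node libraries. Per the labels and the study's methods, the authors trimmed reads of poly-A libraries (cutadapt 4.8) and aligned them to GRCm38 (STAR 2.7.8a). They estimated counts per gene with RSEM 1.3.3 and deposited these expected counts, which are not normalized. The counts were rounded to whole numbers before use here. Strandedness and the annotation release are not given in the sources used here. Of 55487 genes, 55227 matched GENCODE M21 identifiers. Rows that name no gene held 0 counts and were dropped.

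Genes passing filterByExpr (at least 10 counts in enough libraries, 15 in total) were scaled by TMM and fitted by group, all libraries of a tissue together, with the robust quasi-likelihood test of edgeR 4.0.16 in R 4.3.3. P-values were adjusted by Benjamini-Hochberg over all tested genes. The study's methods used DESeq2, which is an alternative here (version 1.42.0). The script was tested on simulated counts. CPM are TMM-scaled. The members and lists were chosen with earlier results of these data known.

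All 8 members are named. Other lists are given by counts of calls and by up to 4 called genes of largest change, or, with none called, the 2 of highest level. All other IRG genes counted are given. The values of 1 called gene are not reported here. The comparisons are L, NL and WT skin in pairs, UVB against none and TG against WT in nodes, their averages and the interaction. Alternatives were DESeq2, RLE scaling, no low-count filter, at least 10 counts in every library, the compared groups alone, each library left out in turn, Tgtp1 and Tgtp2 summed, and the longest transcript as length. Depth was 40499078 to 56511276 counts in skin and 27599809 to 36428435 in nodes, and floors of 3 counts cover counting error only.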

Additional observations from a re-analysis of the deposited data

Results flagged for a closer look

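One value stood far from the others of its group. F830016B08Rik, an IRG gene outside the 8 members, had 108.8 CPM in L replicate 4, while the other 3 L libraries had 0.863, 16.9 and 3.41 CPM and the WT and NL libraries 5.96 to 11.2 CPM. The gap to the nearest library was 0.851 of the group's range. Of the 17 groups of 4 examined, among members and other IRG genes, 1 was marked in this way, and chance marks about 1 in 20. Gm4841, which lies near it on chromosome 18, was also highest in that library, at 60.8 CPM against 12.4 CPM in L replicate 6. None of the 8 members was highest there.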

How the results depend on the processing

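No paired analysis was possible because replicate numbers are shared only between skin and node libraries, which are not compared. Of 1324 refits of single members, 1192 kept direction and side of the threshold, 63 lost a call, 42 gained one and 27 changed sign, all 27 by leaving out a library. Counts of called members moved over 1.5 times as follows, against 2 of 8 in L over NL, 5 in L over WT, 2 for UVB in WT nodes and 0 in TG nodes. DESeq2 called 7 in L over NL, 4 and 8 for UVB in WT and TG nodes, and 1 in treated TG over WT. Without the low-count filter there were 1 (Igtp) in L over WT, 0 in L over NL and 1 for UVB in WT nodes. With 10 counts in every library there were 4 in L over NL, with compared groups alone 0, and with RLE 1 for UVB in WT nodes. The causes were not tested. Over all genes, DESeq2 called 80 in NL over WT, 2002 and 137 for UVB in WT and TG, 2440 averaged, 2 and 19 for genotype without and with UVB, 13 averaged and 8 for the interaction, against 0, 805, 0, 1393, 0, 0, 1 and 0. Compared groups alone gave 3156 in L over NL (4782), 1 in NL over WT and 2431 for UVB in WT. No filter gave 1 for treated TG over WT.

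With 1 library left out, called members ranged from 1 to 6 in L over WT, with 1 (Igtp) without WT replicate 9 or 10 and 3 without replicate 8. They ranged from 0 to 5 in L over NL, with 0 without either NL library or without WT replicate 8 or 9, 1 without L replicate 4 or WT replicate 10 and 5 without L replicate 5 or 7. For UVB they ranged from 0 to 4 in WT and 0 to 6 in TG nodes. Calls over all genes ranged from 1182 to 5187 in L over NL, 0 to 2644 for UVB in WT, 0 to 236 in TG, 373 to 3790 averaged, 0 to 1 for genotype without UVB, 0 to 2 with UVB, 0 to 3 averaged and 0 to 1 for the interaction.

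Signs changed only in values that were not called, and on the log2 scale those results ranged as follows with 1 library left out. Gm4070 ranged from -0.24 to 0.57 in L over WT and from -0.17 to 0.65 in L over NL, with the low ends without L replicate 6. In NL over WT, Iigp1 ranged from -0.58 to 0.20, Irgm2 from -0.39 to 0.14, Gm4070 from -0.16 to 0.027, Igtp from -0.45 to 0.27, Tgtp2 from -0.43 to 0.11 and Tgtp1 from -0.37 to 0.74. Gm4951 ranged from -0.034 to 0.68 for UVB in WT nodes, Iigp1 from -0.24 to 0.29 in untreated TG over WT, and Irgm2 from -0.030 to 0.28 for the interaction. In treated TG over WT, Irgm1 ranged from -0.11 to 0.12, Gm4070 from -0.19 to 0.054, Igtp from -0.13 to 0.087, Tgtp2 from -0.061 to 0.11 and Tgtp1 from -0.043 to 0.14.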
